A study of Mus musculus and Homo sapiens with 7 samples.

Results

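The control guides of a pooled CRISPR/Cas9 screen were compared by kind: 375 safe-targeting guides, listed as safe in the guide table, against 375 non-targeting guides, listed as none. Together these 750 guides make up 7.48% of the 10021 guides in the table, and they were chosen by that label alone. The other 9271 guides were aimed at 929 genes. The cells were B16-F10, a line from a mouse melanoma, with stable Cas9 and a fluorescent protein, kept for 7 days under 2 µg/mL of puromycin to retain those with a guide. After 48 h, guides were amplified from 5 µg of genomic DNA of dead cells from galactose medium (3 libraries, called dead a, b and c) and of living cells from glucose medium (2 libraries, called living a and b). All 5 libraries thus share the cell line, Cas9, the guide pool and the selection, while medium and cell state differ together and cannot be told apart. The series also holds an RNA immunoprecipitation of EOLA1 from human HEK293T cells, which carries no guides and was not used here.

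A safe-targeting guide leads Cas9 to a genomic site outside known genes and functional elements, so the cell carries a double-strand break and its repair but loses no gene. A non-targeting guide matches no site, so no break is made. Setting the first against the second addresses the cost of a cut itself, since breaks halt the cell cycle and can trigger cell death in many cell types, p53-competent ones above all. Guide counts from genomic DNA carry no expression, so neither the melanoma identity of the cells nor the cutting at any site could be checked here. The guide sequences and the sites of the safe-targeting guides were not analysed here.

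The values are normalised guide counts, reads multiplied by 1 factor per library. Total reads were 14722850, 13275792 and 15591468 in dead a, b and c, and 6801049 and 8492138 in living a and b, so the dead libraries were the deeper ones. Summed normalised counts were not equal either. They were 1.12e+07, 1.15e+07 and 1.21e+07 in dead a, b and c, and 1.07e+07 and 1.06e+07 in living a and b. Safe-targeting guides took 4.005%, 4.23% and 4.12% of the normalised counts of dead a, b and c, and 3.97% and 3.88% of living a and b. Non-targeting guides, equal in number, took 4.45%, 4.48% and 4.47% of the dead libraries and 4.42% and 4.53% of the living ones. The summed safe-targeting counts were thus 0.901, 0.944 and 0.921 times the non-targeting ones in dead a, b and c, and 0.898 and 0.857 times in living a and b. In every library the safe-targeting sum was the smaller.

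Counted per guide seen in at least 1 library, the mean safe-targeting count was 0.996, 1.04 and 1.02 times the non-targeting one in dead a, b and c, and 0.993 and 0.948 times in living a and b.

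Fewer safe-targeting guides were present. In dead a, 118 of 375 safe-targeting guides were at 0, or 31.5% (95% Wilson interval 27.0 to 36.3), against 102 non-targeting ones, or 27.2% (22.9 to 31.9). Dead b had 123 safe-targeting guides at 0, or 32.8% (28.2 to 37.7), against 87 non-targeting ones, or 23.2% (19.2 to 27.7). Dead c had 113 safe-targeting guides at 0, or 30.1% (25.7 to 35.0), against 82 non-targeting ones, or 21.9% (18.0 to 26.3). More safe-targeting than non-targeting guides were at 0 in each dead library.

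The living libraries showed the same order. In living a, 114 safe-targeting guides were at 0, or 30.4% (26.0 to 35.2), against 90 non-targeting ones, or 24% (20.0 to 28.6). Living b likewise had 114 safe-targeting guides at 0, against 85 non-targeting ones, or 22.7% (18.7 to 27.2). By Fisher's exact test, 2-sided and adjusted over the 5 libraries, the difference passed 0.05 in dead b (9.60 percentage points, odds ratio 1.62, adjusted p = 0.0218), dead c (8.27 points, odds ratio 1.54, adjusted p = 0.0310) and living b (7.73 points, odds ratio 1.49, adjusted p = 0.0341). It did not pass in dead a (4.27 points, adjusted p = 0.229) or in living a (6.40 points, adjusted p = 0.0737). These 5 tests reuse the same guides and one cell pool, so they are not independent of each other. A value of 0 stood for 0 recovered reads, though such a guide may still be present at a low level. A floor of 3 reads was worth 2.28, 2.59 and 2.32 normalised counts in dead a, b and c and 4.71 and 3.74 in living a and b. When guides with 3 reads or fewer were counted as absent, the difference in dead b was 6.93 points and no longer passed (adjusted p = 0.0794).

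Most of these guides were at 0 everywhere. Of the safe-targeting guides, 101 were at 0 in all 5 libraries, or 26.9% (22.7 to 31.6), against 72 of the non-targeting guides, or 19.2% (15.5 to 23.5). The odds ratio was 1.55 (95% interval 1.08 to 2.22, Fisher's exact test, adjusted p = 0.0452 over 3 pairs of guide kinds). Among guides against genes the share was 22.4% (21.5 to 23.2), between those of the 2 control kinds. Neither control kind differed from it after adjustment (adjusted p = 0.0652 for safe-targeting and 0.163 for non-targeting guides).

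Among the 274 safe-targeting and 303 non-targeting guides seen in at least 1 library, the order of the 2 kinds was not the same in all libraries. Zeros were then 6.20%, 8.03% and 4.38% of safe-targeting guides in dead a, b and c, against 9.90%, 4.95% and 3.30% of non-targeting guides. In living a and b they were 4.74% and 4.74% of safe-targeting guides, against 5.94% and 4.29% of non-targeting guides. No library passed Fisher's exact test (adjusted p between 0.432 and 0.842). The higher share at 0 of safe-targeting guides thus sat mostly among guides absent from living and dead cells alike. The pool of guides before infection and the cells before selection were not analysed here, so a loss through cutting and a lower starting number of safe-targeting guides cannot be told apart. In the table each safe-targeting guide shares its ID number with a non-targeting guide. Over the 375 shared numbers, both guides were at 0 in all libraries for 20, the safe-targeting one alone for 81 and the non-targeting one alone for 52. Mean abundance had a Spearman correlation of −0.0337 over these numbers.

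Among guides that were present, no difference in abundance between the kinds was detected. A mean of at least 10 normalised counts over the 5 libraries was reached by 263 safe-targeting guides (70.1%) and 286 non-targeting guides (76.3%). A further 11 safe-targeting and 17 non-targeting guides were seen below it. Among those past the filter the median safe-targeting guide had 828, 750 and 750 normalised counts in dead a, b and c, against 665, 604 and 707 for the median non-targeting guide. In living a and b it had 747 and 723, against 649 and 698. The middle 50% of guides ran from 164 to 2181 in living a for the safe-targeting kind, and from 149 to 2280 for the non-targeting kind. These ranges overlapped for nearly all of their length.

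On the log2(normalised count + 1) scale, safe-targeting guides averaged 8.90, 8.85 and 8.85 in dead a, b and c, against 8.54, 8.71 and 8.83 for non-targeting guides. They averaged 8.96 and 8.98 in living a and b, against 8.92 and 8.99. In dead a the difference, safe-targeting minus non-targeting, was 0.37 (95% interval −0.18 to 0.92), in dead b 0.14 (−0.41 to 0.69) and in dead c 0.02 (−0.51 to 0.55). In living a it was 0.04 (−0.45 to 0.53), and in living b −0.01 (−0.48 to 0.47). None passed a 2-sided permutation test over guides (adjusted p between 0.973 and 0.979). As folds, the intervals in living cells were 0.734 to 1.44 (living a) and 0.717 to 1.38 (living b), which spans both a lower and a higher level of guides that cut. With every guide kept, absent ones included, the difference was below 0 in all libraries, at −0.28, −0.46 and −0.52 in dead a, b and c and −0.53 and −0.60 in living a and b, and also failed the test (adjusted p between 0.209 and 0.426).

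As a scale for these values, the table held 60 guides against 6 broadly needed genes of a list compiled from general knowledge: the splicing genes Snrpb, Snrpc, Snrpd1, Snrpe and Snrpn, the last of which is mainly neuronal, and Sec61a1, a subunit of the protein-conducting channel of the endoplasmic reticulum. The 40 of these guides past the filter averaged 7.71, 7.95 and 7.91 on the log2 scale in dead a, b and c, and 8.26 and 7.96 in living a and b. Both control kinds averaged higher than these in every library. By absence the order was another: 26.9% of safe-targeting and 19.2% of non-targeting guides were at 0 in all 5 libraries, against 23.3% of the 60 guides (14.4 to 35.4). Guides against all genes averaged 8.65, 8.69 and 8.89 in the dead libraries and 8.94 and 8.91 in the living ones, near the control kinds.

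The spread over guides was wide in both kinds. The SD of log2 counts over safe-targeting guides was 3.08, 3.37 and 3.26 in dead a, b and c, against 3.47, 3.19 and 3.03 over non-targeting guides. In living a and b it was 2.92 and 2.85, against 2.88 and 2.79. The SD was higher in dead than in living libraries within each kind, while neither kind was the wider one throughout. The interquartile range did not keep that order of states. Over safe-targeting guides it was 3.58, 3.64 and 3.95 in dead a, b and c, against 3.73 and 3.47 in living a and b. Over non-targeting guides it was 4.35, 3.97 and 3.93, against 3.92 and 4.01. The ratio of SDs, safe-targeting over non-targeting, was 0.888, 1.05 and 1.08 in dead a, b and c and 1.01 and 1.02 in living a and b. A permutation test on deviations from the median called none of these (adjusted p = 0.326 for dead a and 0.900 for each of the others). Abundance was concentrated in few guides of either kind. The 10 most abundant guides held 25.2%, 26.8% and 26.3% of safe-targeting counts in dead a, b and c, and 24.2% and 23.3% in living a and b. For non-targeting guides these shares were 25.3%, 29.9% and 29.8% in the dead libraries and 22.9% and 21.7% in the living ones.

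A few guides stood far above the rest of their kind. Safe-targeting guide 659, named here by its number in the table, had 25260, 21523 and 30478 normalised counts in dead a, b and c and 21450 and 21285 in living a and b. It was followed in living cells by safe-targeting guide 64, with 15745, 13563 and 16443 in dead a, b and c and 12539 and 10834 in living a and b. For both guides all dead values lay above both living ones on this scale, where the dead libraries had the higher totals. For 659 the margin was slight, at 21523 in dead b against 21450 in living a. By limma the changes were 0.25 ± 0.24 and 0.38 ± 0.21 log2 units (SE) with adjusted p = 0.712 and 0.624 over all guides tested. The most abundant non-targeting guide, 656, had 17011, 33450 and 29124 in dead a, b and c and 14615 and 12684 in living a and b. Its dead values differed among themselves by more than the lowest of them differed from the living ones (0.90 ± 0.37, adjusted p = 0.603). Non-targeting guide 474 was alike in this, with 13569 in dead a, 26172 and 25764 in dead b and c, and 12856 and 12052 in living cells.

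How far libraries of one state disagreed was then measured guide by guide, as the error against which any gene effect has to be seen. For safe-targeting guides with a mean of at least 1000, the log2 difference between 2 dead libraries had an SD of 0.57 (a and b), 0.55 (a and c) and 0.48 (b and c) over 120 guides, against 0.20 between the living libraries. For 123 non-targeting guides of that abundance the SD was 0.57, 0.62 and 0.44 between dead libraries, against 0.18 between living ones. Counting noise alone would give SDs of 0.0383 to 0.0396 for the safe-targeting guides between dead libraries and 0.0530 between the living ones. Separate libraries differ by more than counting, so these are lower bounds of the error. These guides have no gene to lose, and their disagreement was close to that of 2729 guides against genes (SD 0.56, 0.56 and 0.42 between dead libraries and 0.20 between living ones).

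Rarer guides disagreed more. Among safe-targeting guides with a mean of 100 to 1000, 40.2%, 30.4% and 31.5% differed by over 2-fold between dead a and b, a and c, and b and c, against 6.52% between the living libraries. The matching non-targeting shares were 34.3%, 26.5% and 24.5%, against 1.96% in living cells. Between means of 10 and 100, the levels of the 51 safe-targeting guides had Spearman correlations of −0.153, 0.218 and 0.342 between dead a and b, a and c, and b and c, against 0.403 between the living libraries. For 61 such non-targeting guides they were 0.0976, 0.433 and 0.234 between the dead libraries, against 0.625 between the living ones. Within each kind every pair of dead libraries ranked the rare guides less alike than the living pair did. Correlations here are across guides of shared libraries and are given as description.

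The change of a guide was taken as its mean log2 count in dead libraries minus that in living ones. Its median over safe-targeting guides was 0.04, 0.06 and −0.0037 with dead a, b and c taken in turn, against −0.08, −0.10 and −0.16 over non-targeting guides. The same living libraries enter all 3 values. Of the safe-targeting guides, 54.0%, 53.2% and 49.4% were higher in dead a, b and c than in living cells, against 39.9%, 43.4% and 41.3% of the non-targeting guides. These shares rest on the deposited normalisation, in which the dead libraries had the higher totals. Between living b and living a the order was the other way round, with 46.8% of safe-targeting guides higher in b, against 55.9% of non-targeting guides.

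By means over guides, the change of safe-targeting minus that of non-targeting guides was 0.35 with dead a (95% interval 0.13 to 0.57), 0.12 with dead b (−0.17 to 0.41) and 0.0031 with dead c (−0.20 to 0.21). These intervals cover the spread over guides, and each value rests on 1 dead library. Of them, only the interval with dead a lay wholly above 0. With all 3 dead libraries together the difference was 0.16 (interval −0.02 to 0.33) and did not pass a permutation test over guides (adjusted p = 0.143). Dead a was also the library with the most non-targeting guides at 0, 16 of 286 past the filter against 8 of 263 safe-targeting ones. In dead b the order was the other way round, with 5 non-targeting and 16 safe-targeting guides at 0. Of the 6699 guides against genes past the filter, 255 were at 0 in dead a, 187 in dead b and 90 in dead c. Without dead a the difference was 0.0621. When the filter was set to a mean of 50 or more, it was 0.18 and passed (adjusted p = 0.0141). This test treats guides as the units within these 5 libraries and says nothing of further cultures.

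With libraries as the units, the difference between the kinds averaged 0.17 ± 0.18 in dead libraries (SD, n = 3) and 0.02 ± 0.03 in living ones (SD, n = 2). The gap of 0.16 did not exceed the spread between libraries (exact permutation test, 2-sided, p = 0.3). With 3 against 2 libraries that test cannot go below 0.1. Under the other filters and pseudocounts the test gave p from 0.2 to 0.4, except at a mean of 50 or more. There the gap was 0.18 and p reached the limit of 0.1. It also reached that limit when each guide was set against its own mean over the 5 libraries. The difference between the medians of the 2 kinds was then 0.0077, 0.10 and 0.01 in dead a, b and c and −0.07 and −0.13 in living a and b.

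By their medians, the 2 control kinds gave different zero points in these libraries. The difference between the medians was not tested. That between the means did not pass at the filter used here with all dead libraries together. With dead a alone, its interval over guides lay wholly above 0. Over all dead libraries, the median change was 0.0056 for safe-targeting and −0.17 for non-targeting guides, and −0.09 for the 6699 guides against genes past the filter. The median of guides against genes therefore stood at −0.0966 relative to the safe-targeting median but at 0.0794 relative to the non-targeting one. Set against safe-targeting guides, 43.1% of guides against genes were higher in dead cells. Set against non-targeting guides, 55.5% were. With dead a, b and c in turn, these shares were 43.9%, 43.9% and 49.5% against safe-targeting guides, and 54.8%, 51.4% and 57.6% against non-targeting ones. The majority of gene-directed guides thus fell on opposite sides under the 2 zero points with each dead library. Some of these majorities were slight, as with 49.5% for dead c and 51.4% for dead b, and none was tested. With the libraries scaled to equal totals, the median change over all dead libraries was −0.116 for safe-targeting and −0.291 for non-targeting guides. It was −0.212 for guides against genes. The order of the medians was unchanged, but all then lay below 0.

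No control guide passed on its own. By limma on single guides, 0 of 263 safe-targeting and 0 of 286 non-targeting guides passed an adjusted p of 0.05, where 0.0276% of the 7248 guides tested did. At an unadjusted p under 0.05, limma found 13 safe-targeting guides higher and 13 lower, and 8 non-targeting guides higher and 14 lower, where 7.86% of all guides tested passed. That comes to 9.89% of safe-targeting and 7.69% of non-targeting guides. The quasi-likelihood test of edgeR on recovered reads also called 0, with 28 and 13 safe-targeting and 19 and 9 non-targeting guides at an unadjusted p under 0.05, against 11.8% of all guides. Every dead library lay above both living ones for 14.4% of safe-targeting and 12.2% of non-targeting guides, beside 15% of all guides. Every dead library lay below both living ones for 14.1% of safe-targeting and 21.0% of non-targeting guides, beside 17.7% of all guides.

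In the authors' deposited table far more control guides carried an FDR under 0.05, 46.0% of safe-targeting and 42.0% of non-targeting ones past the filter, beside 43.3% of all guides past it. That table called 71 safe-targeting guides higher in dead cells (27.0%) and 50 lower (19.0%), beside 22% and 21.3% of all guides past the filter. Of the non-targeting guides it called 49 higher (17.1%) and 71 lower (24.8%). The balance of directions in the authors' deposited table thus differed in sign between the kinds, in the same sense as their medians before scaling to equal totals. The authors' calls were not recomputed with equal totals. Calls in the authors' deposited table grew with abundance: 16.4% of non-targeting guides with a mean from 10 to 100 were called, 38.2% of those from 100 to 1000 and 57.7% of those from 1000. For safe-targeting guides these shares were 35.3%, 38.0% and 56.7% in the authors' deposited table. Of guides against genes with a mean of at least 1000, it called 57.9%, a share close to those of both control kinds.

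Among control guides whose dead and living values did not overlap, those with the highest changes were mostly rare. Safe-targeting guide 558 had 95.1, 484 and 63.5 normalised counts in dead a, b and c, against 6.28 and 49.9 in living a and b. The 6.28 stand for 4 reads. Safe-targeting guide 613 had 44.9, 76.8 and 85.2 in dead a, b and c, against 25.1 and 2.50 in living a and b. For each, the living libraries differed by several-fold, and neither passed (limma, adjusted p = 0.603 for both). Safe-targeting guide 471 was better measured, with 1332, 1529 and 1072 in dead a, b and c, against 386 and 523 in living a and b. Its dead values lay above the living ones by the rule that chose it. The change was 1.53 ± 0.28 log2 units (SE, 3 against 2 libraries), or 2.88-fold (limma, adjusted p = 0.476, and 0.279 by edgeR). Among non-targeting guides, 585 had 116, 267 and 152 in dead a, b and c, against 87.9 and 18.7 in living a and b, and 698 had 48.7, 50.9 and 77.4, against 45.5 and 8.74.

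Among guides without such overlap, the lowest changes belonged to those nearly or wholly missing from dead cells. Non-targeting guide 527 was at 0 in all dead libraries and had 23.5 and 41.2 normalised counts in living a and b, from 15 and 33 reads. Its fitted change of −5.01 had the smallest adjusted p of all control guides by limma, 0.0606, and one of 0.398 by edgeR. Since its dead libraries are all at 0, that fitted value depends on the pseudocount. Non-targeting guide 464 had 0.761, 0 and 0.774 in dead a, b and c, against 17.3 and 76.1 in living a and b. Safe-targeting guide 624 had 2.28, 0 and 0, against 36.1 and 32.5, and 408 had 1.52, 0 and 0, against 115 and 9.99. Non-targeting guide 535 and safe-targeting guide 545 were low in dead a and b but had 31.0 and 17.0 in dead c, where the living values were 138 and 82.4 for 535 and 166 and 74.9 for 545. None of these passed by limma.

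Guides seen in one state alone were few in either kind. At 0 in both living libraries but above 0 in a dead one were 7 safe-targeting and 10 non-targeting guides, of 375 each. Among the 9271 guides against genes there were 186. Above 0 in a living library but at 0 in all dead ones were 4 safe-targeting and 5 non-targeting guides, beside 166 guides against genes. Of those seen in dead cells alone, safe-targeting guide 463 was the highest, with 0, 168 and 10.8 normalised counts in dead a, b and c. Non-targeting guide 58 had 16.7, 56.9 and 0.774 there, and safe-targeting guides 698 and 397 had 89.7 and 74.2 in dead b but at most 0.774 in dead a and c. In these 4 guides dead b held the highest value, while non-targeting guide 589 was at 0 in dead b and had 19.8 and 3.10 in dead a and c. Of those seen in living cells alone, safe-targeting guide 614 had 3.14 and 18.7 in living a and b, and non-targeting guide 386 had 9.41 and 26.2.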

How the data were processed

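Per the submitters' processing notes the tools included MAGeCK 0.5.9.5. How guides were counted and normalised is not given in the sources used here. The authors' deposited guide table holds, per its file headers, normalised counts per guide, with the libraries of a group in 1 cell. They are named here by their place in that cell, which carries no replicate number. From the same deposited table come the authors' FDR, a p-value adjusted over guides, and log2 fold change. The deposited whole-number counts of the RNA immunoprecipitation were read only to describe the series.

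In each library, low values were whole multiples of 1 step (100% within 0.1 read, values up to 100 reads), and division by it recovered whole reads, to about 1 read for the most abundant guides. Each read was worth 0.761, 0.863 and 0.774 normalised counts in dead a, b and c and 1.57 and 1.25 in living a and b. Reads carry no molecular identifiers. The printed intervals cover variation over guides, not variation between libraries or cultures. The labels do not say whether the libraries are separate cultures, so p-values over libraries rest on a spread that may be technical.

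Shares were compared with Fisher's exact test. Means and spreads of log2(normalised count + 1) were compared over guides with a mean of at least 10 by permutation tests with 100000 resamples (Python 3.11.15, SciPy 1.17.1), with intervals that allow unequal variances. As 3 of the 5 libraries were dead ones, that filter favours rare guides that are higher in dead cells. Changes on this scale are smaller than true ones for low counts. Single guides were tested with limma 3.58.1 (lmFit and eBayes, 2-sided, Benjamini-Hochberg over all 7248 guides, threshold 0.05), and with edgeR 4.0.16 on recovered reads as an alternative, also with the size factors of DESeq2 1.42.0. The tests were tried on simulated data first.

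Guides were named by a rule: for each kind the 3 most abundant in living cells, the 3 highest and 3 lowest changes among guides whose dead and living values do not overlap, and up to 3 each seen in one state alone. Some of these are not printed. The members, lists and tests were chosen with earlier results of these data known. The share at 0 in all libraries, the test of changes over guides and the deviation from each guide's own mean were added after seeing the data.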

Additional observations from a re-analysis of the deposited data

How the results depend on the processing

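No paired analysis was possible because the columns carry no replicate numbers. The differences in share at 0 are those of the absent guides: over guides seen in at least 1 library they were −3.70, 3.08 and 1.08 percentage points in dead a, b and c and −1.20 and 0.454 in living a and b, and none passed. With guides of 3 reads or fewer counted as absent, dead b stood at 6.93 points (adjusted p = 0.0794). The abundance difference turned sign with no filter, to −0.28, −0.46 and −0.52 in dead a, b and c and −0.53 in living a, and was −0.60 in living b. In living b, at −0.01 in the text, it turned to 0.0559 at a mean of at least 50, 0.0735 with a living mean of at least 10, 0.0208 with a pseudocount of 5 and 0.0494 by medians. The ratio of SDs crossed 1 at a mean of at least 50, to 0.977 and 0.947 in dead b and c and 0.992 and 0.937 in living a and b. With a living mean of at least 10 it was 0.954 and 0.981 in living a and b, with a pseudocount of 5 it was 0.986 in living b, and with no filter it was 1.02 in dead a. By interquartile range it was 0.915 in dead b and 0.9498 and 0.864 in living a and b. None of these that had a test passed it, so no order of spreads or levels is read from them, and the cause was not tested. With all dead libraries together, the difference in change between the kinds passed only at a mean of at least 50 (0.18, adjusted p = 0.0141). It ran from 0.0621 without dead a to 0.24 without dead c, and stayed above 0 in all 11 alternatives. The gap between states over libraries had the same range over left-out libraries. The count of control guides called by limma was 0 in most fits and 1 with a pseudocount of 0.5, with equal totals and without dead a, so it ran from 0 to 1 over left-out libraries. Those at an unadjusted p under 0.05 numbered 48 with all libraries and 115 without dead a. Of all guides tested, 7.86% and 19.6% passed in these fits, so the rise was not particular to control guides. The changes of the 12 guides named for the highest and lowest changes kept their sign in all settings tried for them. These guides were chosen for dead and living values that do not overlap. Another pseudocount or a left-out library therefore could not turn the sign. Changes of the other named guides were not recomputed. A single read is worth 1.57 normalised counts in living a, so values near 0 there are coarse.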
